A study of Mus musculus with 23 samples.

Results

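Macrophages sorted from the peripheral nerve of 1-month-old mice were compared between mutant and wild-type animals on 8 of the 23 Affymetrix Mouse Gene 2.0 ST arrays of the series, 5 arrays of mutant nerve and 3 of wild-type nerve. They were taken by their labels as every macrophage array of that age, and no expression value entered the choice. The question was whether macrophages that carry wild-type Nf1 already differ when they sit in nerve where part of the Schwann cells (SCs) have lost Nf1 but which holds no neurofibroma yet. Mutant mice were Nf1fl/fl;DhhCre and controls were Nf1fl/fl, so both groups carried the floxed alleles and differed in the Cre transgene. DhhCre deletes Nf1 in the SC lineage from embryonic life, though the study states that many SCs keep it, and the labels give the macrophages of both groups as Nf1+/+. The labels describe the mutant macrophages as coming from neurofibroma and the wild-type ones from dorsal root ganglia (DRG). The study took DRG with the nerves attached to them from both genotypes at this age. It pooled the tissue of 3 to 4 such mice per flow analysis, with 3 analyses, and reports 3 independent macrophage sorts. It does not say how many mice stand behind an array, or whether some of the 5 mutant arrays share a pool. The labels give a mixed C57BL/6 and BALB/c background, and the methods C57Bl/6. Cells were freed by hours of enzymatic digestion and sorted as live F4/80+;CD11b+ cells. All 5 mutant arrays belong to label batch 1 and all 3 wild-type arrays to label batch 2, so genotype and label batch cannot be told apart from these arrays alone. Arrays are called by the numbers in their labels, mutant 11 to 15 and wild type 4 to 6.

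Nerve macrophages are resident phagocytes that clear debris, present antigen and respond to injury. When they sense nucleic acids or microbial products they secrete interferon beta, which acts through the receptor chains Ifnar1 and Ifnar2 to switch on a shared set of antiviral genes in the same and neighbouring cells. Interferon gamma, a product mainly of T and NK cells, acts through Ifngr1 and Ifngr2 and induces antigen presentation and guanylate-binding genes.

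Among 22180 genes tested with limma, 0 (0%) met the study's criteria of more than 2-fold and an adjusted p below 0.05. The smallest adjusted p was 0.316. At an unadjusted p under 0.05 there were 2317 genes (10.4%), 1029 higher in mutant nerve macrophages (4.64%) and 1288 lower (5.81%). Every mutant array lay above every wild-type array for 687 genes (3.1%), and below for 854 (3.85%), together 6.95%. When the values were centred on the array medians the counts without overlap were 1121 and 480, and those at an unadjusted p under 0.05 were 1693 higher and 732 lower, so the balance of higher and lower genes depends on the scaling. Differences above 2-fold were seen for 31 genes in the higher direction and 45 in the lower. The arrays of the groups were similarly alike across groups and within them. Pearson's r across genes averaged 0.972 between mutant and wild type, 0.976 among mutant and 0.973 among wild-type arrays. All differences below are log2 values, mutant minus wild type, on the RMA scale, and none of them passed the adjusted test.

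The sorted cells carried their markers. Adgre1, which encodes F4/80, had values of 9.84 to 10.26 in mutant arrays and 9.33 to 10.06 in wild-type arrays, and Itgam, which encodes CD11b, 6.92 to 7.93 and 6.53 to 7.56. The mean of 24 macrophage identity genes lay between 8.7 and 8.99 in mutant and between 8.75 and 8.98 in wild-type arrays. Other material was present in some arrays. Wild-type arrays 5 and 6 held seminal vesicle transcripts that wild-type array 4 and the mutant arrays lacked. Svs4, a secretory protein of that gland, had 2.79 to 3.17 in the mutant arrays, against 2.74, 10.34 and 11.54 in wild-type arrays 4, 5 and 6. These arrays were also the highest on the first principal component (36.0 and 29.2, against -37.8 to 11.6 on the other 6). SC wild-type arrays 2 and 3, of label batch 2 like these arrays, held the same transcripts, with Svs4 at 11.40 and 8.70 and list means of 7.45 and 3.56, and the batch term and the SC differences used below rest partly on them. Where a macrophage difference past an unadjusted p of 0.05 changed by more than 1.5 times without wild-type arrays 5 and 6 or with label batch as a term, that value is given as well.

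The mean of 22 SC genes ranged from 4.77 to 6.08 in mutant arrays and from 4.90 to 5.38 in wild-type arrays, against 7.26 to 7.61 in the 6 SC arrays of the same age. S100b, a calcium-binding protein of SCs, had 7.02, 7.73, 7.22, 8.64 and 7.86 in mutant macrophage arrays and 6.21, 6.65 and 7.01 in wild-type ones, a difference of 1.07 ± 0.33 (SE). Mag, a myelin protein, differed by 0.80 (1.28 without wild-type arrays 5 and 6) and Scn7a, a sodium channel of non-myelinating SCs, by 1.47, with 3 mutant arrays above 6 and 2 within 0.3 of the wild-type range. The median difference of the SC genes was 0.25, and 0.65 without wild-type arrays 5 and 6. Fibroblast genes had a median of -0.39 (17 genes, -0.27 without these arrays) and smooth muscle genes of -0.44 (13 genes, 0.11 without them). The fibroblast median rested on mutant array 13 and was 0 without it. The mean of the fibroblast genes was 4.57 in that array, 5.81 to 6.5 in the other mutant arrays and 5.92 to 6.45 in wild-type arrays. Cnn1, a smooth muscle actin-binding protein, differed by -1.83, and by -1.11 without wild-type arrays 5 and 6. The mean of endothelial genes was 5.18 and 5.08 in mutant arrays 14 and 15, 3.9 to 4.32 in the other mutant arrays and 4.38 to 5.1 in wild-type arrays. Mutant arrays 14 and 15 also lay apart on the second principal component (-32.8 and -33.2, against 2.4 to 23 on the other macrophage arrays). The defining B cell gene Ms4a1 and the T cell gene Cd3e had group means between 2.63 and 3.42, near the bottom of the scale. Xist and Y-linked genes varied within both groups, with Xist at 5.29 to 10.20 in mutant and 8.16 to 10.30 in wild-type arrays. The part that these other cells and the mix of sexes play in the results below was not tested.

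**Figure D1:**
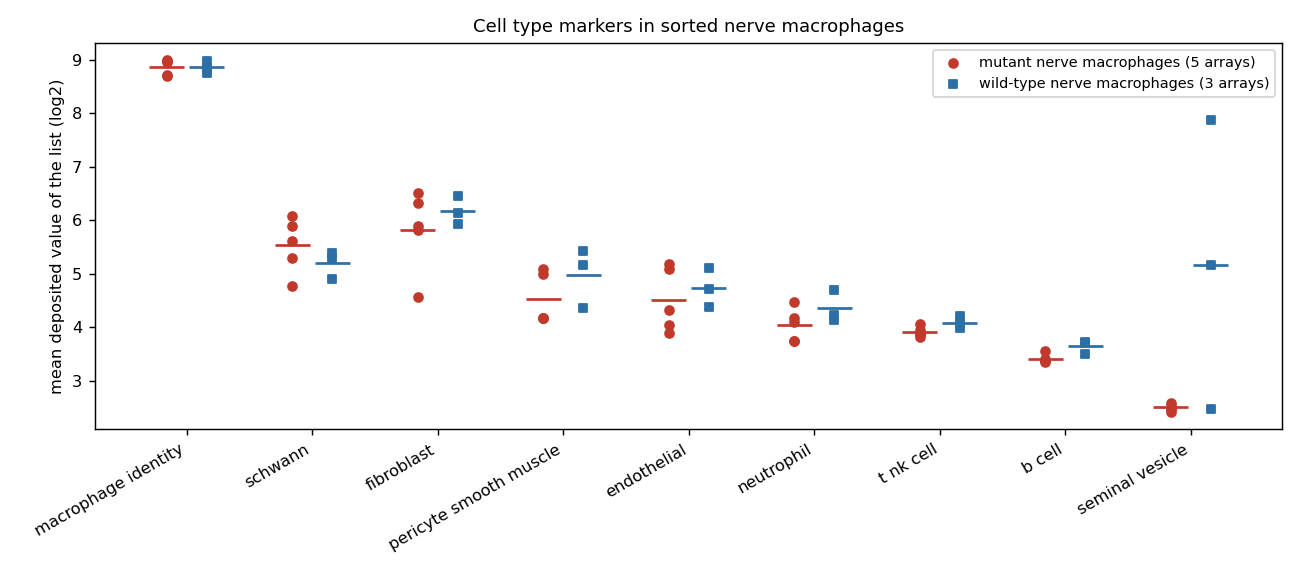
Mean deposited log2 value (vertical axis) of marker genes of 9 cell types in each macrophage array, with mutant arrays as circles, wild-type arrays as squares and a line at each group mean. Macrophage identity genes sit between 8.7 and 8.99 in all 8 arrays, and the seminal vesicle genes stand at 2.42 to 2.59 in the mutant arrays, against 2.47, 5.16 and 7.87 in wild-type arrays 4, 5 and 6.

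Among the listed pathways type I interferon had the lowest median. Ifnb1, the gene of interferon beta (chr4:88522025-88522794, GRCm38.p6), lay lower in every mutant array, and most genes that it induces had negative differences. The promoters of Ifnb1 and of 3 induced genes among those with the largest differences, chosen because they hold a match, are shown because the interferon-stimulated response element can be looked up in them. The run of 250 bases before each RefSeq start (GRCm38.p6) is given on the strand of the gene, with matches to that element in capitals, searched as GAAA followed after 2 or 3 bases of any kind by another GAAA, on either strand. Matches that overlap run together, and a match on the other strand appears as its complement.
Ifnb1 (chr4:88522795-88523044, minus strand): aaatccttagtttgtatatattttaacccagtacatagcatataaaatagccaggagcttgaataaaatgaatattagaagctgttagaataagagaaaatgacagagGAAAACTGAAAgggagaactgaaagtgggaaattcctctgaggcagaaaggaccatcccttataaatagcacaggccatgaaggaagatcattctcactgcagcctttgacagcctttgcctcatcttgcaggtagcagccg
Ifit3 (chr19:34583279-34583528, plus strand): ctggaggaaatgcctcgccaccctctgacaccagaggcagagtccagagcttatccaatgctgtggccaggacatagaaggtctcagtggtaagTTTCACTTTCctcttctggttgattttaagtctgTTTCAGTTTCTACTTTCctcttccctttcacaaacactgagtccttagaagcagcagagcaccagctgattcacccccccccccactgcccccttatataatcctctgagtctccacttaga
Oas1g (chr5:120887614-120887863, minus strand): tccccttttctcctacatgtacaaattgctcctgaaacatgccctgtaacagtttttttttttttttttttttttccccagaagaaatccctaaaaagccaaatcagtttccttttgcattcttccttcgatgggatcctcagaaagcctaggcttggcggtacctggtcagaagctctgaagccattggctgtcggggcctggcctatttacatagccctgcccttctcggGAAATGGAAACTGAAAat
Trim30d (chr7:104507850-104508099, minus strand): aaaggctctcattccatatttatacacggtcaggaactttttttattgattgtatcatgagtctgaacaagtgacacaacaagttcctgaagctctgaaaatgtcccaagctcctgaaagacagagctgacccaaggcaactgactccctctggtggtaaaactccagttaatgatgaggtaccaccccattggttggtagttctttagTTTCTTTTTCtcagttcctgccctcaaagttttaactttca
Of the 52 measured genes of the type I interferon list, 39 had a promoter in the RefSeq table, and 20 of them (51.3%) held a match, against 1624 of 27025 genes with a promoter (6.01%). Slfn1 and Cmpk2, which also had large differences, held none in this window. Of the genes that lay lower in every mutant array 34 of 637 held a match (5.34%), and of those higher 28 of 557 (5.03%). A match describes the letters alone.

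Ifnb1 had 10.06, 9.67, 9.37, 9.67 and 9.44 in mutant arrays 11 to 15, against 10.47, 10.88 and 10.96 in wild-type arrays 4 to 6. Every mutant array lay below every wild-type array. The difference was -1.13 ± 0.18 (SE), a 2.18-fold lower level, and the adjusted p from limma was 0.342. It was -0.83 without wild-type arrays 5 and 6. In a fit of 14 sorted-cell arrays that holds label batch as a term, where the size of the batch effect comes from the SC arrays, it was -0.47 ± 0.42 (SE). That value lies outside the 95% interval of the fit without that term (-1.53 to -0.72). Its own SE is larger than the 0.18 of that fit, so the values of these fits were not shown to differ. The batch effect in SCs, batch 1 minus batch 2, was -0.65 ± 0.38 (SE), and Ifnb1 stood at only 1.96 to 4.65 there. SC wild-type arrays 2 and 3, of batch 2 and with seminal vesicle transcripts, were the highest of these at 4.65 and 3.46. The fit takes the same shift for macrophages at their far higher level, which was not tested. Ifna7, an interferon alpha gene of low signal, averaged 3.82 ± 0.40 in mutant and 4.36 ± 0.16 in wild-type arrays (SD).

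Of 60 listed genes that type I interferon induces 52 were measured, and 51 of them lay below 0, against 52.6% of all genes. The median difference was -0.60, against -0.02 over all genes. At an unadjusted p under 0.05 there were 27 lower (51.9%, against 5.81% of all genes) and 0 higher, and 11 did not overlap between the groups (21.2%, against 3.85%). The mean of the list was 7.81, 6.93, 6.82, 7.70 and 7.51 in mutant arrays 11 to 15 and 7.63, 8.22 and 8.03 in wild-type arrays 4 to 6. Mutant arrays 12 and 13 were the lowest, and mutant arrays 11 and 14 lay above wild-type array 4, so the groups overlapped on this mean.

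**Figure D2:**
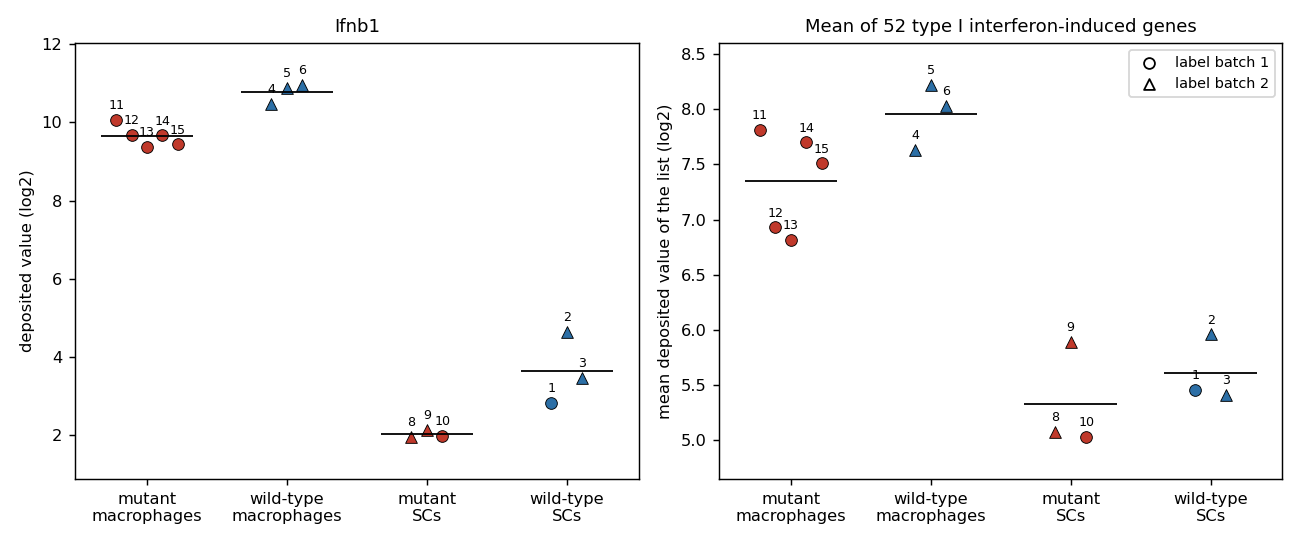
Deposited log2 value of Ifnb1 (left) and mean of 52 type I interferon-induced genes (right) in macrophages and SCs at 1 month, with array numbers above the points, circles for label batch 1, triangles for label batch 2 and lines at the group means. Ifnb1 stands at 9.37 to 10.06 in mutant and 10.47 to 10.96 in wild-type macrophages, while the list means overlap at mutant arrays 11 and 14 and wild-type array 4.

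Effectors of the antiviral response come first. Ifit3, which binds viral RNA complexes, had 8.22, 7.25, 6.67, 7.46 and 7.70 in mutant arrays, against 8.30, 8.56 and 8.46 in wild-type arrays. The groups did not overlap, the difference was -0.98 ± 0.28 (SE), and it was -0.94 with label batch as a term. Adar, an RNA editor with an interferon-induced isoform, had 6.78, 6.49, 6.43, 6.59 and 6.56 in mutant arrays and 6.97, 7.20 and 7.17 in wild-type arrays, a difference of -0.54 that was -0.55 with label batch as a term. Ifit1, also an RNA-binding effector, and Parp14, an ADP-ribosyltransferase, differed by -0.72 and -0.60 with no overlap, and Ifit1 by -0.32 with label batch as a term and -0.45 without wild-type arrays 5 and 6. Oas1g, of the oligoadenylate synthetase family that activates RNase L, had 7.95, 7.05, 6.58, 7.52 and 6.75 in mutant arrays, against 7.92, 8.46 and 8.09 in wild-type arrays, so that mutant array 11 alone reached the wild-type range. Bst2, the membrane tether that holds budding virus, differed by -0.87, Mx1 by -0.70 and Ddx60, a helicase, by -0.65. With label batch as a term Mx1 stood at -0.39 and Ddx60 at -0.41, and Mx1 at -0.36 without wild-type arrays 5 and 6.

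Regulators within the list were less uniform. Slfn1, which restrains T cell growth in mice, differed by -1.13 and did not overlap, with 6.79 to 8.16 in mutant and 8.35 to 9.19 in wild-type arrays, and it was -0.71 with label batch as a term and -0.73 without wild-type arrays 5 and 6. Trim30d, of the tripartite motif family, differed by -1.09, and mutant array 14 (8.59) lay just above wild-type array 4 (8.57). Irf7, the factor that amplifies interferon production, had 8.42, 6.48, 7.19, 8.11 and 7.68 in mutant arrays and 7.42, 9.00 and 8.01 in wild-type arrays, a difference of -0.57 with a 95% interval from -1.55 to 0.41. Isg15, a ubiquitin-like modifier, differed by -0.59 (-1.32 to 0.14) and Siglec1, a sialic acid receptor of macrophages, by -0.17 (-1.21 to 0.86). Slfn8 was the exception, at 0.17. The Ifit3 and Ifit3b, Oas1, Phf11, Trim30 and Slfn genes have close copies, so their probes may share signal.

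The count of lower genes in the list depended on the arrays and on the batch term. With label batch as a term 2 of the 52 were lower and 1 was higher at an unadjusted p under 0.05 (3.35% and 2.25% of all genes in that fit). In that fit 40 lay below 0 and the median was -0.33. Usp18, Rsad2 and Phf11b, at -0.70, -0.67 and -0.97 in the 8 arrays, turned to 0.49, 0.28 and 1.20. Without wild-type arrays 5 and 6 the count was 0 (3.27% of all genes), 45 lay below 0 and the median was -0.32, with Rsad2 at -0.16 and Phf11b at -0.51. Leaving out wild-type array 5 alone gave 10 (869 of all 22180 genes), wild-type array 6 alone 13 (912 of all genes), and wild-type array 4 alone 30 (7.91% of all genes). In SCs, where both genotypes hold 1 array of batch 1 and 2 of batch 2, batch 1 lay below batch 2 for this list by a median of -0.26. Over all genes 3.62% lay past an unadjusted p of 0.05 between these batches.

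**Figure D3:**
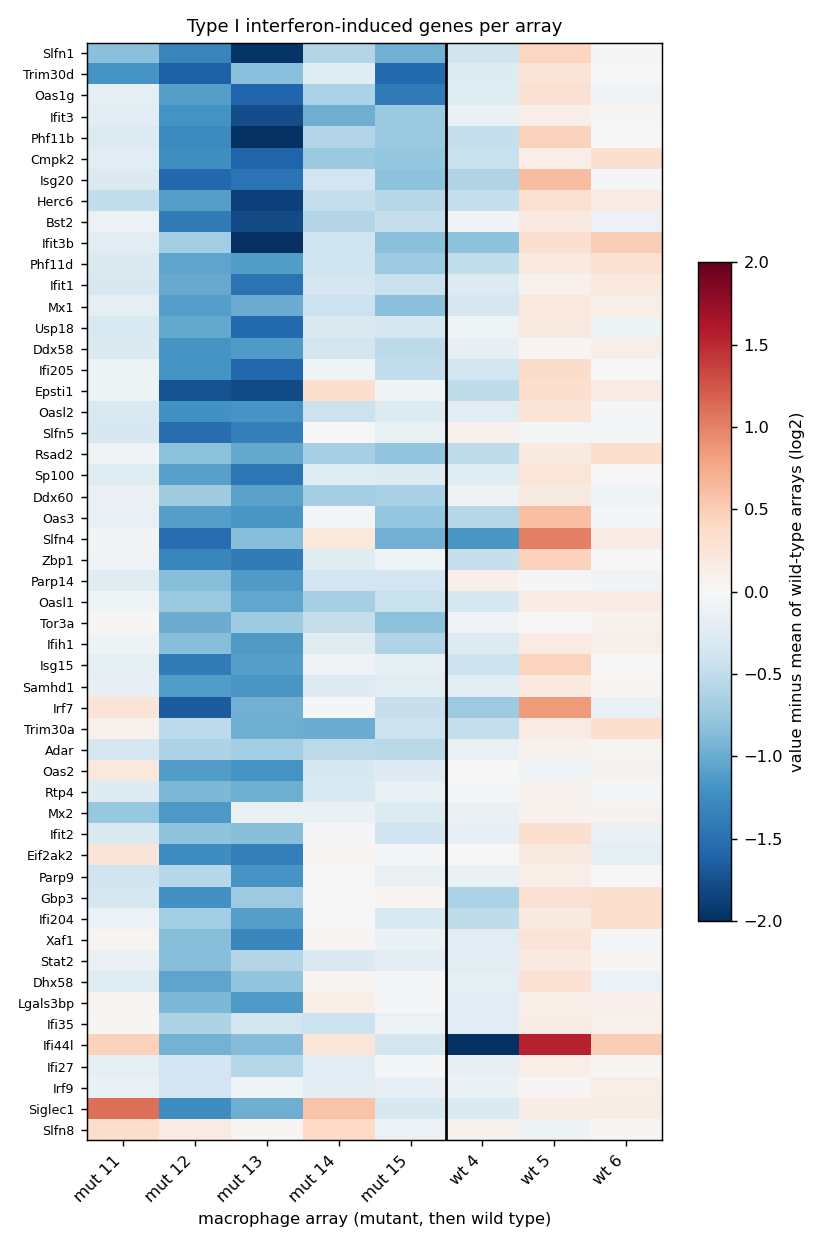
Value of each of 52 type I interferon-induced genes (rows, ordered by mutant minus wild-type difference) in the 5 mutant and then the 3 wild-type macrophage arrays (columns), as log2 difference from the mean of the wild-type arrays, on a colour scale that ends at 2 in either direction. Mutant arrays 12 and 13 are blue for most genes, mutant arrays 11, 14 and 15 are paler, and Slfn8 in the last row is the gene with a positive difference.

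Of 29 measured interferon and interferon receptor genes 15 lay above 0 and 14 below, with 2 higher and 3 lower at an unadjusted p under 0.05 (6.9% and 10.3%, against 4.64% and 5.81% of all genes). Receptor chains had positive differences. Ifngr2, the signalling chain of the interferon gamma receptor, had 8.70, 8.77, 8.90, 8.60 and 8.85 in mutant arrays, against 8.43, 8.28 and 8.40 in wild-type arrays. The groups did not overlap. The difference was 0.39 ± 0.13 (SE) and 0.57 with label batch as a term. Ifnar1 had 8.71 to 8.95 in mutant and 8.46 to 8.59 in wild-type arrays (0.29, and 0.05 with label batch as a term), and Ifnar2 differed by 0.20. These 3 chains were the list's members without overlap in the higher direction, which 3.1% of all genes share, and Ifnar1 and Ifnar2 were named after their values were seen. Ifngr1, the ligand-binding chain, differed by 0.26 with overlap. Ifng itself was near the bottom of the scale at 3.11 to 3.24 in mutant and 3.14 to 3.37 in wild-type arrays.

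Of 33 listed genes that interferon gamma induces 29 were measured, and 28 lay below 0, with a median of -0.33. Lower at an unadjusted p under 0.05 were 7 (24.1%, against 5.81% of all genes), among them the guanylate-binding gene Gbp4 (-0.84), the immunity-related GTPases Irgm2 (-0.77) and Irgm1 (-0.66), the chemokine Cxcl10 (-0.47) and the peptide transporter Tap1 (-0.46). Several of these genes respond to type I interferon too. With label batch as a term the median was 0.02, and Gbp4 and Tap1 stood at 0.16 and 0.04. Without wild-type arrays 5 and 6 it was 0.08, with Gbp4 at -0.43, Irgm2 at -0.47, Cxcl10 at -0.25 and Tap1 at -0.22. Irgm2 and Cxcl10 stood at -0.34 and -0.24 with label batch as a term. Irf1, which drives many of these genes, averaged 5.98 ± 0.57 in mutant and 6.31 ± 0.13 in wild-type arrays (SD). MHC class II genes had a median of -0.09 that was 0.27 with label batch as a term, with 0 of 11 past an unadjusted p of 0.05 in either direction.

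Genes of resident and alternatively activated macrophages were also mostly lower, as were some other lists. Of 28 measured resident genes, 21 lay below 0, 6 were lower at an unadjusted p under 0.05 (21.4%, against 5.81% of all genes) and 2 were higher (7.14%, against 4.64%), and the median was -0.18. Monocyte-derived genes had a median of -0.28, with 18 of 23 below 0 and 4.35% lower at that p. Of 14 skeletal muscle genes 13 lay below 0 and 21.4% were lower at that p. The mean of the resident list overlapped, at 7.33 to 7.83 in mutant and 7.71 to 7.92 in wild-type arrays. Its median difference was -0.26 with label batch as a term and -0.17 without wild-type arrays 5 and 6. Retnla, a secreted protein of alternatively activated macrophages, had 10.64, 9.65, 9.71, 10.24 and 9.10 in mutant arrays, against 10.87, 10.66 and 10.69 in wild-type arrays. Every mutant array lay below, by -0.87 ± 0.29 (SE). Folr2, a folate receptor that marks resident macrophages, had 8.71, 8.93, 9.21, 8.74 and 8.69 in mutant and 9.21, 9.56 and 9.61 in wild-type arrays, a difference of -0.60 that was -0.64 with label batch as a term and -0.35 without wild-type arrays 5 and 6. The groups met at 9.21, in mutant array 13 and wild-type array 4.

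Cd163, the haptoglobin-haemoglobin scavenger receptor, had 6.49 to 6.79 in mutant arrays and 7.78, 6.86 and 6.82 in wild-type arrays 4, 5 and 6, so that array 4 stood apart. The difference was -0.54, -0.81 with label batch as a term and -1.16 from wild-type array 4 alone. F13a1, the transglutaminase subunit of clotting factor XIII, differed by -0.48 without overlap, and the lectins Clec10a and Fcna by -0.88 and -0.75 with overlap, Fcna by -0.21 without wild-type arrays 5 and 6. Against these, Stab1, a scavenger receptor, had 7.89, 8.20, 8.35, 7.82 and 8.16 in mutant and 7.81, 7.25 and 7.64 in wild-type arrays, a difference of 0.52, and Fcrls, an Fc receptor-like protein, differed by 0.44. Without wild-type arrays 5 and 6 they stood at 0.28 and 0.67. The mannose receptor Mrc1 (0.10, 95% interval -0.23 to 0.42), Timd4 (-0.27, -1.08 to 0.54), Lyve1 (-0.40, -0.87 to 0.06) and Arg1 (0.70, -0.35 to 1.76) had intervals that included 0. So did Chil3 (-0.89, -1.79 to 0.01).

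**Figure D4:**
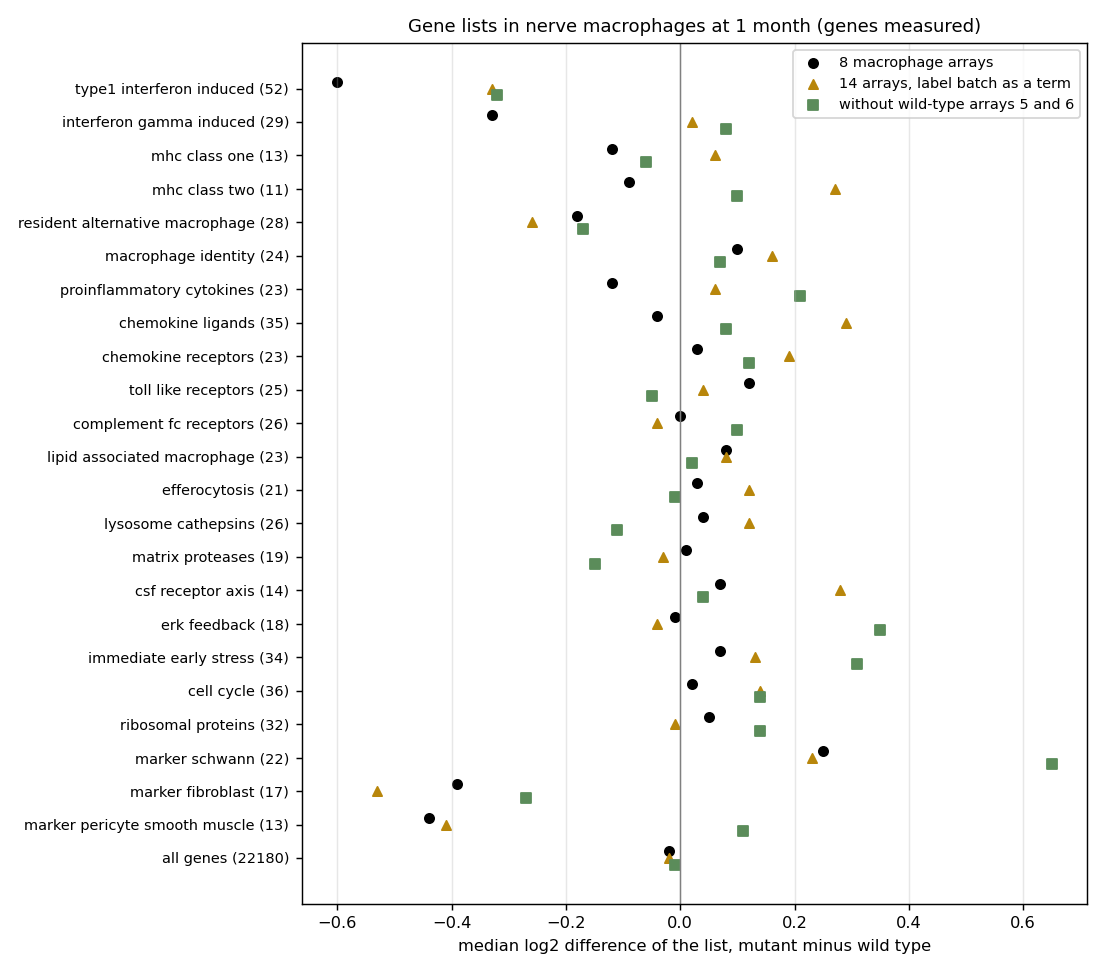
Median log2 difference, mutant minus wild type (horizontal axis), of 23 gene lists and of all genes, with the number of genes measured in parentheses, from the 8 macrophage arrays (circles), from 14 arrays with label batch as a term (triangles) and without wild-type arrays 5 and 6 (squares). The type I interferon list lies lowest at -0.60 and keeps a negative median in the other fits (-0.33 and -0.32), while the interferon gamma list moves to 0.02 and 0.08.

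The genes that were higher in every mutant array were led by single genes of diverse roles. Arsb, a lysosomal sulfatase that degrades glycosaminoglycans (chr13:93771679-93943016), had 7.20, 8.06, 8.11, 7.36 and 7.73 in mutant arrays, against 6.32, 6.24 and 6.91 in wild-type arrays. The difference was 1.20 ± 0.24 (SE), a 2.3-fold higher level. Hvcn1, the voltage-gated proton channel that balances charge during the oxidative burst (chr5:122206805-122242297), had 6.43, 6.58, 6.32, 6.12 and 5.87 in mutant arrays, against 5.56, 5.04 and 5.17 in wild-type arrays. It differed by 1.01 ± 0.19 (SE), by 1.00 with label batch as a term and by 0.70 without wild-type arrays 5 and 6, with an adjusted p from limma of 0.360.

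Pik3cb, a catalytic subunit of phosphoinositide 3-kinase, had 7.25, 7.24, 7.36, 7.08 and 6.87 in mutant arrays and 6.29, 6.29 and 6.45 in wild-type arrays, a difference of 0.82. Extl3, a glycosyltransferase of heparan sulfate synthesis, had 5.12 to 5.59 in mutant and 4.21 to 4.55 in wild-type arrays (0.99, and 1.06 with label batch as a term). Reep4, which shapes the endoplasmic reticulum (1.07), and Hsdl1, a mitochondrial dehydrogenase-like protein (0.83, and 0.52 with label batch as a term), also belonged to the 10 genes with the smallest p. The zinc finger genes Zfp119a and Zfp160, the DNA repair cofactor Inip and the splicing factor U2af1l4 differed by 1.66, 1.01, 1.21 and 1.09. With label batch as a term Zfp119a stood at 0.66 and the other 3 at 1.05, 0.96 and 1.33. Without wild-type arrays 5 and 6 Inip stood at 0.60 and U2af1l4 at 0.55.

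Single genes of innate immunity were higher at an unadjusted p under 0.05 too. Tlr13, an endosomal receptor for bacterial ribosomal RNA, had 8.82, 9.05, 8.66, 8.54 and 8.46 in mutant arrays, against 8.38, 7.54 and 8.09 in wild-type arrays, a difference of 0.71 ± 0.20 (SE) that was 0.97 with label batch as a term and 0.33 without wild-type arrays 5 and 6. Over the 25 Toll-like receptor genes measured, 2 were higher and 1 was lower at an unadjusted p under 0.05 (8% and 4%, near the 4.64% and 5.81% of all genes), with a median of 0.12 that was -0.05 without wild-type arrays 5 and 6. Sirpa, the receptor of the "do not eat me" signal CD47, had 7.90 to 8.21 in mutant and 7.52 to 7.80 in wild-type arrays (0.44). Icosl, a costimulatory ligand, differed by 0.56 and Batf3, a transcription factor of cross-presenting dendritic cells, by 0.69, both without overlap. Icosl stood at 0.24 without wild-type arrays 5 and 6, and Batf3 at 1.16 with label batch as a term. Among Fc receptors the inhibitory Fcgr2b differed by 0.60 and the activating Fcgr1 by -0.71, with mutant array 15 (9.87) above wild-type array 5 (9.84) in Fcgr1, which stood at -0.17 with label batch as a term. Apoe, the lipid carrier, had 6.05 to 6.24 in mutant and 5.70 to 5.89 in wild-type arrays (0.35), and Fabp4, a fatty acid-binding protein, 9.31 to 9.65 and 9.68 to 10.32 (-0.50, and -0.08 with label batch as a term).

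Respiratory chain genes lay slightly higher. Of 29 measured, 25 lay above 0, against 47.4% of all genes, and 3 were higher at an unadjusted p under 0.05 (10.3%, against 4.64% of all genes), with a median of 0.18 that was also 0.18 with label batch as a term and 0.06 after quantile normalization. The mean of the list lay between 8.08 and 8.26 in mutant and between 7.97 and 8.07 in wild-type arrays. Ndufa2 and Ndufs1, subunits of complex I, differed by 0.30 and 0.32 (Ndufs1 by 0.19 with label batch as a term) and Cox7a2, a subunit of complex IV, by 0.30. Of 26 lysosomal genes 21 lay above 0, with a median of 0.04 that was 0.00 after quantile normalization and -0.11 without wild-type arrays 5 and 6, and Gusb, beta-glucuronidase, differed by 0.51, and by 0.18 without these arrays.

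Among matrix proteases Mmp9 and Mmp14 had differences of opposite sign. Mmp9, a secreted gelatinase, had 3.93, 4.11, 4.25, 4.26 and 4.30 in mutant arrays, against 4.79, 5.10 and 4.75 in wild-type arrays (-0.71), but 0.03 with label batch as a term. Mmp14, a membrane-bound collagenase, had 8.86, 8.98, 8.44, 9.33 and 9.34 in mutant and 8.21, 8.51 and 8.26 in wild-type arrays (0.66, and 0.68 with that term).

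Outside Ifnb1 and the type I interferon list, the lower genes were led mostly by genes of low signal. Pate14 (-1.50) and Sva (-1.36) were highest in wild-type array 6 (5.88 and 4.82), which held seminal vesicle transcripts. SC wild-type array 2, which held them too, had 4.94 and 4.76. Without wild-type arrays 5 and 6 Pate14 and Sva stood at -0.33 and -0.38, and with label batch as a term at -0.72 and -0.47. The part of that material in them was not tested. The 854 genes that were lower in every mutant array had a median level of 3.56, against 6.23 for the 687 higher ones and 4.04 for all genes, and 20.8% of them lay below the first quartile of all values (2.73), against 5.82% and 18.5%. Aurkc, a meiotic aurora kinase (chr7:6995347-7003091), had 2.93, 3.60, 2.66, 3.03 and 2.93 in mutant arrays, against 4.45, 4.65 and 4.16 in wild-type arrays. It had the smallest p of all genes, a difference of -1.39 ± 0.21 (SE), and -1.09 with label batch as a term. Qpct, glutaminyl cyclase, which modifies chemokines such as Ccl2, had 5.16, 4.43, 4.06, 4.60 and 5.11 in mutant arrays, against 5.76, 6.34 and 5.70 in wild-type arrays. It differed by -1.26 ± 0.26 (SE), by -1.51 with label batch as a term and by -1.09 without wild-type arrays 5 and 6.

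Kmo, an enzyme of tryptophan breakdown, differed by -1.02 (-0.49 without wild-type arrays 5 and 6), and Trim34a and Phf11 by -1.05 and -1.28, none with overlap. Phf11 is of the same family as Phf11b and Phf11d, which are in the type I interferon list. Trim34a, of the tripartite motif family like Trim30d of that list, averaged 6.32 in mutant and 7.37 in wild-type arrays. Bcas3os2, an opposite-strand transcript, had 2.63 to 2.85 in mutant and 3.47 to 3.51 in wild-type arrays. Its difference of -0.75 was -0.86 with label batch as a term. Kctd7, Dcaf12l2 and Slc36a1os differed by -0.71, -0.75 and -0.73, and none of them overlapped. Stfa2, a neutrophil cystatin, differed by -0.96 and S100a9, a neutrophil and monocyte protein, by -1.20, and by -0.47 and -0.41 without wild-type arrays 5 and 6, beside a neutrophil list mean of 3.74 to 4.48 in mutant and 4.14 to 4.69 in wild-type arrays.

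**Figure D5:**
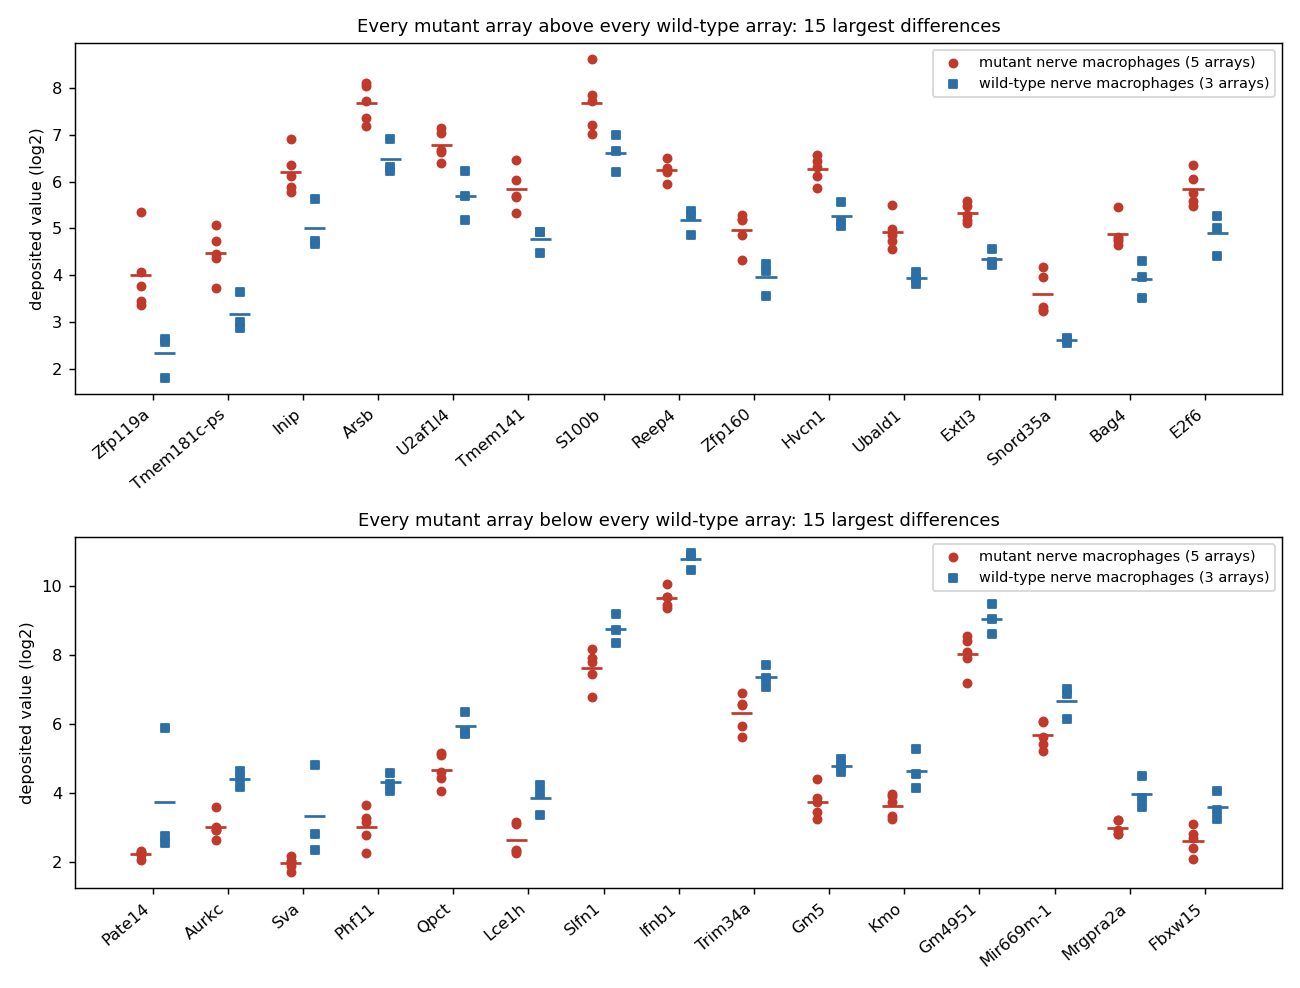
Deposited log2 values of the 15 genes with the largest differences among those whose every mutant array lies above (upper panel) or below (lower panel) every wild-type array, with mutant arrays as circles, wild-type arrays as squares and lines at the group means. Zfp119a leads the higher genes at 1.66 and Ifnb1 is the brightest of the lower genes. In Pate14 and Sva wild-type array 6, which held seminal vesicle transcripts, lies far above the others.

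Several cytokines and chemokines that the study follows in neurofibroma had intervals around 0. Ccl2, the monocyte chemoattractant, had 11.31 to 11.70 in mutant and 11.39 to 11.80 in wild-type arrays, a difference of -0.07 with a 95% interval from -0.41 to 0.26. Ccl5 differed by -0.04 (-0.57 to 0.48). Il1b had 10.11 to 11.09 in mutant and 9.71 to 10.95 in wild-type arrays, a difference of 0.00 (-0.73 to 0.73) that was 0.81 against wild-type array 4 alone. Ccr2, the receptor of Ccl2, differed by 0.02 (-0.45 to 0.49), Csf1 by 0.12 (-0.65 to 0.88), Vegfa by -0.18 (-0.95 to 0.58), Clcf1 by 0.23 (-0.26 to 0.72) and Casp1 by -0.25 (-0.55 to 0.06). The widest of these intervals, of Csf1 and Vegfa, reach nearly 2-fold. Other fits moved some of these genes, Ccl5 to 1.08, Il1b to 0.86 and Casp1 to -0.66 with label batch as a term, and Ccr2 to -0.57 without wild-type arrays 5 and 6.

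Lower at an unadjusted p under 0.05 were Il15, which sustains NK and memory T cells (-0.84), the anti-inflammatory cytokines Il10 (-0.72) and Tgfb3 (-0.75) and Tnfsf14 (-0.40). Of 17 anti-inflammatory genes 2 were lower and 1 was higher at that p (11.8% and 5.88%), with a median of -0.08. Of 23 proinflammatory cytokines 2 were lower and 0 higher (8.7% and 0%), with a median of -0.12. Over all genes 5.81% were lower and 4.64% higher. With label batch as a term these medians were 0.05 and 0.06. Il10 had 6.83, 7.24, 7.04, 7.66 and 7.86 in mutant arrays and 7.52, 8.36 and 8.24 in wild-type arrays, and it differed by -0.20 from wild-type array 4 alone. Tgfb3 and Il15 stood at -0.22 and -0.39 against that array, Il15 at -0.26 with label batch as a term, and Tnfsf14 at -0.83 with that term. Of 35 chemokine ligands 0 were higher and 2 lower at that p (5.71%, against 5.81% of all genes), with a median of -0.04, and of 23 chemokine receptors 0 in either direction.

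Nf1 was measured as a check of the labels. It had 6.92, 7.07, 6.76, 6.64 and 6.84 in mutant arrays and 6.85, 6.30 and 6.38 in wild-type arrays, a difference of 0.33 (95% interval -0.03 to 0.69) that was -0.01 without wild-type arrays 5 and 6. In SCs, the cells in which Cre acts, it had 6.75, 7.01 and 6.94 in mutant arrays and 7.24, 7.27 and 7.16 in wild-type arrays. That difference was -0.32 ± 0.16 (SE), with an unadjusted p from limma of 0.083 and an adjusted p of 0.936, so a loss was not shown. The array sums over the transcript and need not see the floxed exons. Among 18 targets and feedback inhibitors of ERK signalling Etv5 differed by 0.57 and Spry1 by -0.53 (-0.29 without wild-type arrays 5 and 6), and the median was -0.01, and 0.35 without wild-type arrays 5 and 6.

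SCs from nerve of the same age and genotypes gave no call either (0 of 22180 genes, 3 mutant and 3 wild-type arrays). In them 446 genes were higher and 611 lower at an unadjusted p under 0.05 (2.01% and 2.75%). The difference between macrophages and SCs in the mutant minus wild-type change was tested as an interaction in the fit of 14 arrays. It passed for 0 genes, with 2158 at an unadjusted p under 0.05 (9.73%) and a smallest adjusted p of 0.376. Ifnb1 was far lower in SCs, at 1.96, 2.15 and 1.98 in mutant and 2.82, 4.65 and 3.46 in wild-type arrays, a difference of -1.62 in which wild-type arrays 2 and 3, those with seminal vesicle transcripts, were the highest. The type I interferon list had a median of -0.25 in SCs, with 44 of 52 genes below 0, against 11725 of all 22180 genes. In SCs 4 of the 52 were lower and 0 higher at an unadjusted p under 0.05 (2.75% and 2.01% of all genes). The list means overlapped, at 5.08, 5.89 and 5.03 in mutant and 5.46, 5.96 and 5.41 in wild-type SC arrays. Arsb differed by 1.20 in macrophages and by -0.81 in SCs, Pik3cb by 0.82 in macrophages and -0.39 in SCs, and Aurkc by -1.39 in macrophages and 0.21 in SCs, and the interaction of each had an adjusted p from limma of 0.376.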

How the data were processed

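The deposited log2 values of 41345 transcript clusters are RMA values that the authors made in Affymetrix Expression Console (version 1.3.1.187, mm10). Probes were named from the platform annotation, 23521 clusters with 1 gene, 1820 with several and 16004 with none, and 1 cluster per gene was kept, the highest over the 14 sorted-cell arrays at 1 month. The values were used as deposited, since the 8 macrophage arrays share 1 scale. limma (version 3.58.1, R 4.3.3) was fitted to these arrays, with 10.6 total degrees of freedom, and p-values were adjusted by Benjamini-Hochberg over 22180 genes. ± gives the SE or, where stated, the SD. Precision is limited by how few arrays there are, and p-values measure the spread between these samples, which may be partly technical. Fits with label batch or all sorted-cell arrays, ComBat written out in R, other normalizations, filters, variance models and left-out arrays were alternatives, and the steps were tested on simulated data. Lists were compiled by hand, and members and lists were chosen with earlier results of these data known. Named genes are the 15 largest differences in each direction without overlap, the 4 largest of each list, the 10 smallest p, genes the study names and the sort markers, and 27 others were chosen after their values were seen. Promoters and positions came from RefSeq (GRCm38.p6). Plots used matplotlib (version 3.10.9).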

Additional observations from a re-analysis of the deposited data

Results flagged for a closer look

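Among 165 sets of 5 mutant arrays looked at, 118 of single genes and 47 of list means, 3 had an array far from the other 4, and chance alone flags about 1 in 20 sets. Ccl2 had 11.31 in mutant array 11, against 11.62 to 11.70 in the other mutant arrays. Ifng had 3.11 in mutant array 11, against 3.20 to 3.24, at the bottom of the scale. The mean of the B cell list was 3.55 in mutant array 14, against 3.34 to 3.40. Groups of 3 wild-type arrays were not looked at in this way.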

How the results depend on the processing

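The count of genes called was 0 in every alternative but one. Left-out arrays gave 0 to 3 calls, and the 3 without wild-type array 4 were Svs4, Svs5 and Gm16445, where arrays 5 and 6 alone remained as wild type. After ComBat, limma was fitted to 3 macrophage groups, with the older neurofibroma macrophages added. The differences stayed as they were, with Bcas3os2 at -0.75 and the median of the type I interferon list at -0.60 in both fits. The counts after ComBat are therefore not counts corrected for label batch. In that fit Bcas3os2 had an adjusted p from limma of 0.028, and 3662 genes lay at an unadjusted p under 0.05, against 2317. That number was 1241 with label batch as a term and 1459 to 3537 with 1 array left out, and the largest, 3537, came without wild-type array 4. Over all 41345 transcript clusters it was 3840, a share of 9.29%, against 10.4% of the 22180 genes. Centring on array medians gave 5.05% of genes above and 2.16% below without overlap, against 3.1% and 3.85%. The type I interferon genes lower at an unadjusted p under 0.05 numbered 2 with label batch as a term, 13 with no variance moderation, 10 to 33 with 1 array left out and 0 without wild-type arrays 5 and 6, against 27. Of 120 genes, 8 that lay past an unadjusted p of 0.05 reversed. With label batch as a term these were Usp18 (0.49), Rsad2 (0.28), Phf11b (1.20), Gbp4 (0.16), Tap1 (0.04), Mmp9 (0.03) and Cd3e (0.26), and without wild-type arrays 5 and 6 Svs4 (0.30). The causes were not tested. The interaction with SCs stayed at 0 calls with label batch as a term. No paired analysis was possible because the groups share no replicate number. Signals near the bottom of the scale limit what the low genes can show.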
